A study of Mus musculus with 6 samples.

Results

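The imprinted growth network genes described here in infarcted mouse hearts were 10 genes taken by symbol: H19, Igf2, Meg3, Dlk1, Mest, Peg3, Cdkn1c, Plagl1, Grb10 and Peg10. Each symbol matched 1 row, which gave 10 of the 54532 genes listed. Bulk mRNA sequencing had been performed on peri-infarcted and infarcted tissue of 3 wild-type (WT) and 3 TSLPR knockout (Crlf2-/-) mice on day 7 post-MI. Each mouse gave 1 library. In all 6 mice MI was induced by ligation of the left anterior descending coronary artery, so both groups carried the injury and no sham or remote tissue was measured here. The labels give the strain of all 6 mice as C57BL/6, and Crlf2 encodes the receptor chain that binds the cytokine TSLP. Per the study's methods, WT mice were purchased young adult C57BL/6J males, and Crlf2-/- mice had been generated by another company on that background, so the genotype and the source of the mice cannot be told apart.

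Imprinted genes are transcribed mainly or only from the allele inherited from 1 parent, according to DNA methylation set in the germ line. As a group they are known for controlling fetal and placental growth, and most members of this network are strongly expressed in the embryo and fall to low levels after birth. Paternally expressed members (Igf2, Dlk1, Mest, Peg3, Plagl1 and Peg10) are mostly growth promoting, and maternally expressed members (H19, Cdkn1c and, in most tissues, Grb10) mostly restrain growth. Meg3, also expressed from the maternal allele, is a long non-coding RNA that shares its locus with Dlk1. Values per gene do not show which parental allele was transcribed.

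The genes were located in GRCm38, on the strand given, as follows. H19 (ENSMUSG00000000031, minus strand, chr7:142575529-142578143) and Igf2 (ENSMUSG00000048583, minus strand, chr7:142650766-142666816) lay 72.6 kb apart on chromosome 7. Cdkn1c (ENSMUSG00000037664, minus strand, chr7:143458339-143461050) followed on the same chromosome, 791.5 kb from Igf2. Dlk1 (ENSMUSG00000040856, plus strand, chr12:109452823-109463336) and Meg3 (ENSMUSG00000021268, plus strand, chr12:109541001-109571726) were separated by 77.7 kb on chromosome 12. The remaining genes were Peg3 (ENSMUSG00000002265, minus strand, chr7:6703892-6730431), Mest (ENSMUSG00000051855, plus strand, chr6:30723547-30748465), Peg10 (ENSMUSG00000092035, plus strand, chr6:4747306-4760517), Plagl1 (ENSMUSG00000019817, plus strand, chr10:13060504-13131694) and Grb10 (ENSMUSG00000020176, minus strand, chr11:11930508-12038683). H19 and Meg3 were annotated as long intergenic non-coding RNAs and the other 8 as protein-coding.

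H19, Igf2, Meg3 and Mest also carry microRNAs, short RNAs that pair with target transcripts mainly through their seed. The mature sequences are shown because they are a product of these loci that the expression table does not quantify. They were taken from RefSeq (GRCm38.p6), 5′ to 3′, with the seed (bases 2 to 8) in capitals. The first pair lies within H19, the second within Igf2, the next 3 within Meg3 and the last pair within Mest.
mmu-miR-675-5p: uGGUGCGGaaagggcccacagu
mmu-miR-675-3p: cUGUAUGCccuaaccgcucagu
mmu-miR-483-5p: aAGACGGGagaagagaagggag
mmu-miR-483-3p: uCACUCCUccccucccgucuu
mmu-miR-1906: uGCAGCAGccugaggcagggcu
mmu-miR-770-5p: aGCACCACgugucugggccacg
mmu-miR-770-3p: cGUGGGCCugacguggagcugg
mmu-miR-335-5p: uCAAGAGCaauaacgaaaaaugu
mmu-miR-335-3p: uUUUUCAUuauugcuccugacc
The 9 mature sequences had 9 distinct seeds, so none of these microRNAs shared a seed with another one. The separate rows for the miR-675, miR-483, miR-770 and miR-1906 precursors held 0 fragments in all libraries, and the row for the miR-335 precursor held 5 in all. These libraries were made from poly-A selected RNA, so such rows do not measure mature microRNAs, and the host values below are those of the long transcripts.

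Expression was given as FPKM, the number of sequenced fragments scaled to gene length and to library size. Fragments on listed genes numbered 18508646 to 18973594 in WT libraries and 18578175 to 19682428 in Crlf2-/- libraries, and the number of fragments behind each value was recovered from the FPKM. Fragments were still assigned to Crlf2 in all 3 Crlf2-/- libraries (437, 651 and 667, against 917, 813 and 707 in WT), with a log2 fold change of -0.52 (SE 0.17, limma adjusted p = 0.521). Marker lists fitted heart tissue, with summed cardiomyocyte markers at 742 to 2088 FPKM and summed retina markers at 0.110 to 0.195 FPKM. The 10 cardiomyocyte markers all had fold changes below 0 (summed FPKM 1085 to 2088 in WT and 742 to 1447 in Crlf2-/- hearts), and the 5 red blood cell genes were lower at an unadjusted p under 0.05 (226 to 370 against 84.9 to 161). None of these marker genes passed the adjusted threshold.

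One library stood apart from the other 5 in a way that touched these genes. Crlf2-/- replicate 2 contained transcripts of skeletal muscle, the striated muscle of the body wall and limbs, which were nearly lacking elsewhere. The 9 skeletal muscle markers summed to 382.3 FPKM in this library and to 3.69 to 5.74 FPKM in the others. Mylpf, a fast myosin light chain, was at 147.4 FPKM there and at most at 0.777 FPKM elsewhere, and Myh4, a fast myosin heavy chain, was at 10.7 FPKM there and at 0 in the other 5. A list of 10 genes of skeletal muscle differentiation and development, chosen after these values were seen, summed to 24.9 FPKM against 0.0720 to 0.400 FPKM. It included the myogenic factor Myog, with 160 fragments against 0 in the others, and the embryonic myosin Myh3, with 1213 fragments against at most 3. The fold changes of the 10 genes are therefore given with and without this library, and the part of its skeletal muscle transcripts in the results was not tested.

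**Figure D1:**
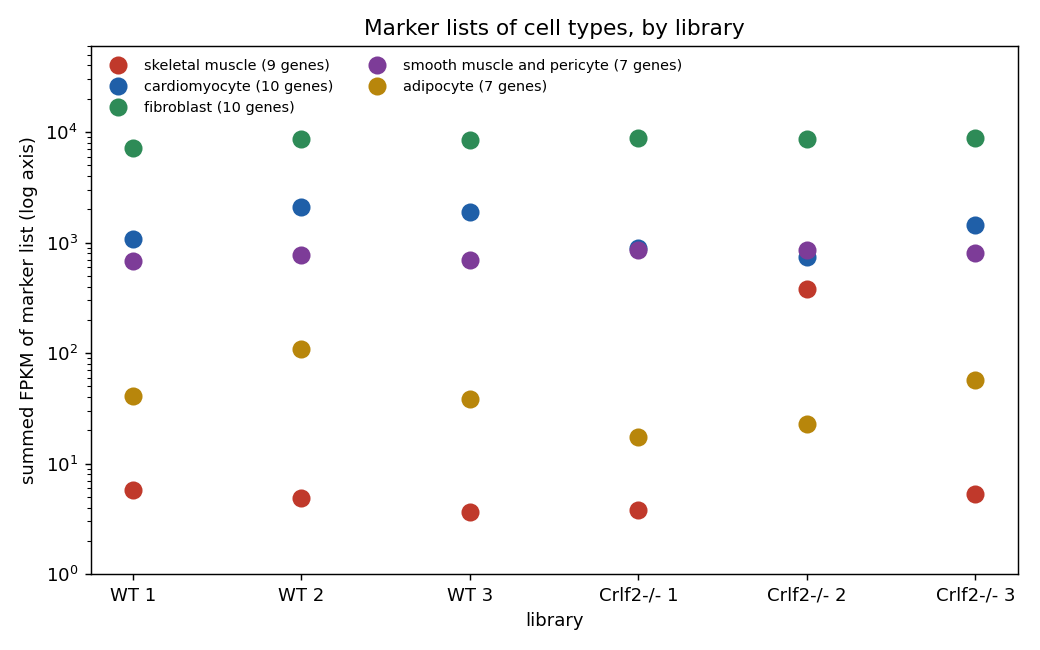
Summed FPKM (log axis) of 5 marker lists of cell types in each of the 6 libraries. Skeletal muscle markers summed to 382.3 FPKM in Crlf2-/- replicate 2 and to 3.69 to 5.74 FPKM in the other libraries, while fibroblast markers lay between 7177 and 8866 FPKM throughout.

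The levels of the 10 genes in injured heart spanned from abundant to barely detected. H19 was by far the most abundant, with a mean of 170.4 FPKM over the 6 libraries, above 98.9% of the 15520 genes that passed the filter on low values. Grb10 (24.8 FPKM) and Mest (20.9 FPKM) followed, above 89.9% and 88.0% of genes. Cdkn1c (5.82 FPKM), Plagl1 (5.68 FPKM), Peg3 (3.34 FPKM) and Meg3 (3.29 FPKM) were of middle abundance. Peg10 was at 1.15 FPKM, Dlk1 at 0.248 FPKM and Igf2 at 0.0939 FPKM, the last above only 1.12% of the genes tested. The ranges over libraries overlapped between Grb10 and Mest, between Cdkn1c and Plagl1, between Peg3 and Meg3, and between Dlk1 and Igf2, so the order within these pairs was not larger than the spread. All 10 genes passed that filter, which asked for 10 fragments or more in 3 or more libraries and a total of 15 or more.

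**Figure D2:**
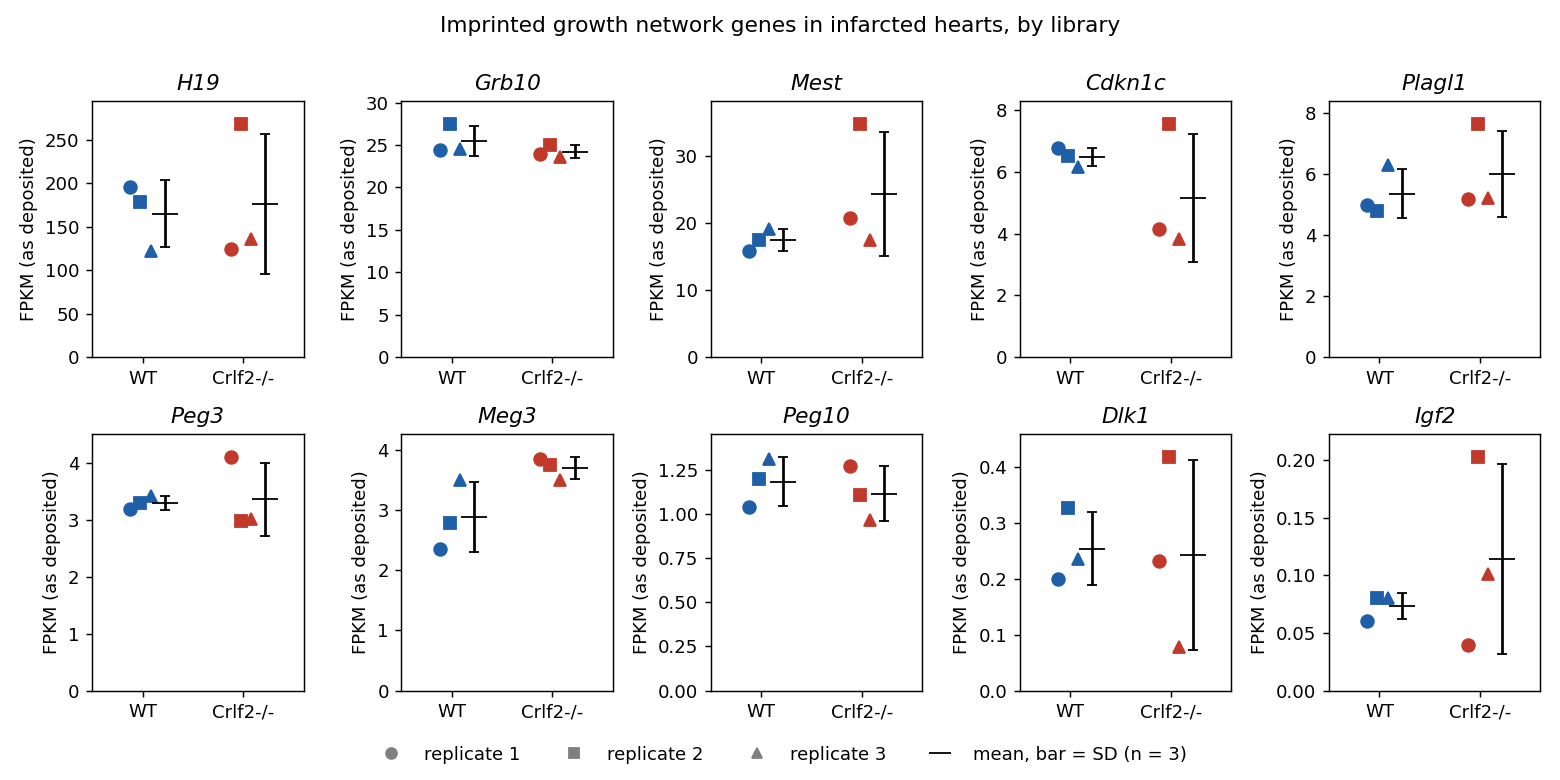
FPKM as deposited for each of the 10 genes in every library, on linear axes that start at 0, with the group mean and SD (n = 3) beside the points. In 6 panels the highest point is Crlf2-/- replicate 2 (red square), reaching 268 FPKM for H19 and 34.8 FPKM for Mest, and the groups overlap in every panel.

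None of the 10 genes was called different between Crlf2-/- and WT hearts. A call needed a Benjamini-Hochberg adjusted p up to 0.05 over all genes tested and a log2 difference of 0.5 or more in size, by limma on log2(FPKM + 0.1). Calls were rare throughout by this test, with 0.0129% of the 15520 genes tested (0.00644% higher and 0.00644% lower in Crlf2-/- hearts). The study tested counts with DESeq2 at the same thresholds and reported far more genes as different. Meg3, higher in Crlf2-/- hearts, was the 1 gene of the 10 below 0.05 before adjustment. Over all genes this held for 6.58%, with 3.22% higher and 3.36% lower. The same counts, 0 called and 1 at an unadjusted p under 0.05, were obtained with limma's voom on the recovered fragments, by which 0.0193% and 6.36% of all genes passed. WT and Crlf2-/- libraries overlapped for all 10 genes, whereas they did not overlap for 11.7% of all genes. Fold changes were above 0 for 6 genes and below 0 for 4, with a median of 0.0246 on the log2 scale beside -0.0042 over all genes tested.

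**Figure D3:**
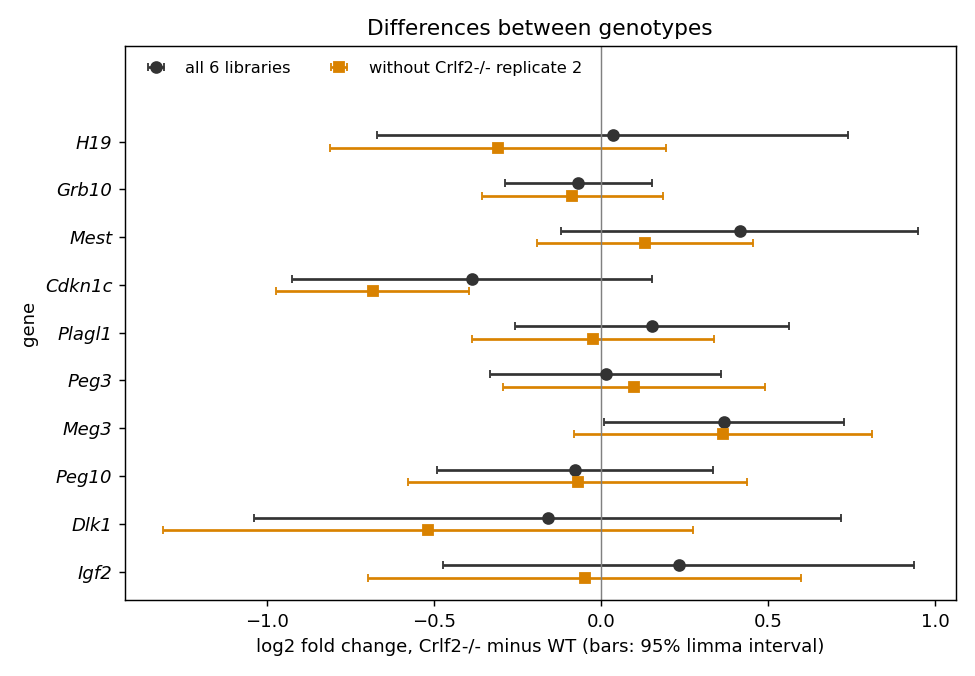
Log2 fold change (Crlf2-/- minus WT, scaled log2(FPKM + 0.1)) of each gene with its 95% limma interval, from all 6 libraries (black circles) and without Crlf2-/- replicate 2 (orange squares). Removing that library moved H19 from 0.04 to -0.31, Mest from 0.41 to 0.13 and Cdkn1c from -0.39 to -0.68, while Grb10, Peg3, Meg3 and Peg10 moved by less.

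The growth factor of the network and the genes next to it were examined first. Igf2 encodes insulin-like growth factor 2, a fetal growth factor that signals through the IGF1 and insulin receptors. It was counted with 8, 10 and 10 fragments in WT libraries (0.0607, 0.0806 and 0.0799 FPKM) and with 5, 27 and 13 in Crlf2-/- libraries (0.0394, 0.202 and 0.101 FPKM). Crlf2-/- replicate 2 was the highest and replicate 1 the lowest, so the Crlf2-/- values enclosed those of WT. The exact Poisson 95% intervals of these 2 libraries, picked as the highest and the lowest, were 17.8 to 39.3 and 1.62 to 11.7 fragments. They did not overlap, which covers counting error only. Mean levels were 0.0738 ± 0.0113 FPKM in WT and 0.114 ± 0.0822 FPKM in Crlf2-/- hearts (SD, n = 3), and the log2 fold change was 0.23 (95% interval -0.47 to 0.94; limma adjusted p = 0.993) and -0.05 without replicate 2. The pseudocount exceeds most Igf2 values and shapes this fold change, which was 0.34 (SE 0.57) with a pseudocount of 0.01, 0.05 with a pseudocount of 1 and 0.36 (SE 0.59) by voom. In the annotation 64.5% of the exonic bases of Igf2 are shared with other genes, mostly with Gm49394 on the same strand, which is listed at 0 fragments in every library. How fragments in shared exons were counted is not given in the sources used here. If they were dropped, the same fragments over the 2029 unshared bases would correspond to 0.111 to 0.570 FPKM.

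H19, the non-coding RNA that lies next to Igf2 and shares its control region and enhancers, was at 195, 178 and 122 FPKM in WT and at 124, 268 and 136 FPKM in Crlf2-/- hearts. The single high Crlf2-/- value was that of replicate 2, and the other 2 lay at the level of WT replicate 3. The means were 165 ± 38.5 FPKM in WT and 176 ± 80.1 FPKM in Crlf2-/- hearts (SD, n = 3), and the log2 fold change was 0.04 (SE 0.31, 95% interval -0.67 to 0.74, limma adjusted p = 0.996). Without replicate 2 the Crlf2-/- mean was 129.8 FPKM and the log2 fold change was -0.31 (SE 0.21), so the sign depended on 1 library. It also turned to -0.17 without WT replicate 3. Between 6538 and 15386 fragments lay behind each H19 value.

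Mest, a paternally expressed gene that encodes a hydrolase-like protein of the endoplasmic reticulum, was at 15.9, 17.6 and 19.2 FPKM in WT and at 20.7, 34.8 and 17.5 FPKM in Crlf2-/- hearts. Crlf2-/- replicate 2 was 1.68 times the highest of the other 5 libraries, and the other 2 Crlf2-/- values lay within or just above the WT range. Mean levels were 17.5 ± 1.65 and 24.4 ± 9.20 FPKM (SD, n = 3). The log2 fold change was 0.41 (SE 0.23, 95% interval -0.12 to 0.95, limma adjusted p = 0.856), and 0.13 without that library. The last 912 bases of the Mest annotation, 23.1% of its exonic length, are shared with Copg2 on the opposite strand, which had 801 to 1002 fragments per library. The strand setting of the counting is not given in the sources used here, so reads from this stretch may belong to either gene. If they were dropped, the same Mest fragments over the 3033 unshared bases would correspond to 20.7 to 45.3 FPKM. Copg2 itself differed little between groups (log2 fold change 0.06).

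Grb10 encodes an adaptor protein that binds the insulin and IGF1 receptors and dampens their signal. Its FPKM were 24.4, 27.5 and 24.5 in WT and 24.0, 25.1 and 23.6 in Crlf2-/- hearts. The SD of its log2 values was 0.09 among WT libraries and 0.04 among Crlf2-/- libraries, and 18.7% and 3.21% of all genes had a smaller one. The log2 fold change was -0.07 (SE 0.096, 95% interval -0.29 to 0.15, limma adjusted p = 0.995), and -0.09 without Crlf2-/- replicate 2. No Grb10 exon was shared with another gene.

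On chromosome 12, Meg3 was at 2.36, 2.79 and 3.51 FPKM in WT and at 3.85, 3.75 and 3.50 FPKM in Crlf2-/- hearts, on 981 to 1583 fragments. Crlf2-/- replicates 1 and 2 lay above all WT libraries, and replicate 3 (3.50 FPKM) lay just under WT replicate 3 (3.51 FPKM). The means were 2.89 ± 0.583 and 3.70 ± 0.177 FPKM (SD, n = 3), and the log2 fold change was 0.37 (SE 0.16, 95% interval 0.01 to 0.73). Its unadjusted p of 0.0452 became 0.741 after adjustment over all genes (limma), and the exact two-sided permutation test gave p = 0.2, where 0.1 is the smallest p that 3 against 3 libraries allow. Without Crlf2-/- replicate 2 the log2 fold change stayed at 0.37 (limma unadjusted p = 0.0939). Some marker sums also differed between the groups. Smooth muscle and pericyte markers summed to 680 to 771 FPKM in WT and 798 to 855 FPKM in Crlf2-/- hearts (4 of 7 genes above 0). Most of that sum was Acta2 (495 to 624 and 646 to 726 FPKM), while Rgs5, Notch3 and Myh11 had log2 fold changes of -0.27, -0.09 and -0.19. Fibroblast markers summed to 7177 to 8703 and 8652 to 8866 FPKM (6 of 10 above 0), with overlap. Within WT, both sums were lowest in replicate 1, as was Meg3, and highest in replicate 2, whereas Meg3 was highest in replicate 3. Of the smooth muscle and pericyte markers, Acta2 and Tagln were highest within WT in replicate 2. Rgs5, Kcnj8, Notch3, Myh11 and Cspg4 were highest there in replicate 3, as Meg3 was. The part of either marker list in the Meg3 values was not tested, and in bulk tissue fewer cells of a type and less RNA per cell cannot be told apart.

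Dlk1 encodes a transmembrane protein related to Notch ligands that is known for holding precursor cells, such as preadipocytes, undifferentiated. It had 26, 40 and 29 fragments in WT (0.200, 0.326 and 0.234 FPKM) and 29, 55 and 10 in Crlf2-/- libraries (0.231, 0.417 and 0.0784 FPKM). Both the highest and the lowest value were thus found among Crlf2-/- mice. Their exact Poisson 95% intervals were 41.4 to 71.6 and 4.80 to 18.4 fragments. These did not overlap, which covers counting error only, for libraries picked as the highest and the lowest. The SD of the log2 values among Crlf2-/- libraries was 0.77, larger than for 97.3% of genes. The log2 fold change was -0.16 (SE 0.38, 95% interval -1.04 to 0.72, limma adjusted p = 0.996). It was -0.52 without replicate 2 and 0.25 without replicate 3, so its sign depended on 1 library. It also moved with the pseudocount, to -0.30 (SE 0.56) at 0.01 and -0.02 at 1, and was -0.31 (SE 0.53) by voom.

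Cdkn1c, the cyclin-dependent kinase inhibitor p57 of the KIP family, showed the widest separation between groups once Crlf2-/- replicate 2 was left out. Its FPKM were 6.75, 6.52 and 6.17 in WT and 4.13, 7.55 and 3.81 in Crlf2-/- hearts, on 175 to 359 fragments. Crlf2-/- replicates 1 and 3 lay below all WT libraries, and replicate 2 lay above all of them. The means were 6.48 ± 0.294 and 5.16 ± 2.07 FPKM (SD, n = 3), with a log2 fold change of -0.39 (SE 0.23, 95% interval -0.92 to 0.15, limma adjusted p = 0.889). Without replicate 2 the Crlf2-/- mean was 3.97 FPKM and the log2 fold change was -0.68 (SE 0.12, 95% interval -0.97 to -0.39, unadjusted p = 0.000746, limma). This difference was not called, because its adjusted p was 0.286, the lowest of the 10 genes over all alternatives (0.286 to 1.00 for Cdkn1c, limma). Among all genes, 5.41% had an unadjusted p under 0.05 without that library, and Crlf2-/- replicates 1 and 3 did not overlap WT for 20.2%. Besides Cdkn1c, only Grb10 among the 10 genes did not overlap under this comparison. In the annotation 30.7% of the exonic bases of Cdkn1c lie opposite Gm44732, which is listed at 0 fragments in every library. If fragments in shared exons were dropped, the same fragments over the 1414 unshared bases would correspond to 5.49 to 10.9 FPKM.

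With all 6 libraries, the log2 fold changes of the zinc finger genes of the network were smaller in size than those of Cdkn1c, Meg3 and Mest. Plagl1 encodes a zinc finger factor that restrains proliferation and is known to regulate other imprinted genes. It was at 4.97, 4.80 and 6.28 FPKM in WT and at 5.17, 7.64 and 5.21 FPKM in Crlf2-/- hearts. Replicate 2 was again the highest of the 6 libraries, and the log2 fold change was 0.15 with it (SE 0.18, 95% interval -0.26 to 0.56, limma adjusted p = 0.988) and -0.02 without it. Peg3 encodes a large zinc finger protein linked to maternal behaviour and cell survival. Its FPKM were 3.19, 3.30 and 3.43 in WT and 4.11, 2.98 and 3.02 in Crlf2-/- hearts, where replicate 1 was above and the other 2 were below the WT range. Its log2 fold change was 0.01 (SE 0.15, 95% interval -0.33 to 0.36, limma adjusted p = 0.996) and was -0.14 without Crlf2-/- replicate 1 and 0.10 without replicate 2. Peg10, derived from a retrotransposon and needed for placental development, was at 1.04, 1.20 and 1.31 FPKM in WT and at 1.27, 1.11 and 0.965 FPKM in Crlf2-/- hearts, with a log2 fold change of -0.08 (SE 0.18, 95% interval -0.49 to 0.34, limma adjusted p = 0.996) and of -0.07 without Crlf2-/- replicate 2. The intervals of Grb10, Peg3 and Peg10 stayed within 0.5 on either side of 0, whereas those of H19, Igf2, Dlk1, Mest, Cdkn1c, Plagl1 and Meg3 reached beyond it.

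The 10 genes also differed in how they varied among Crlf2-/- mice. In 6 of them (H19, Igf2, Dlk1, Mest, Cdkn1c and Plagl1) Crlf2-/- replicate 2 was the highest of the 6 libraries, where 17.9% of all genes had their highest value in it. Replicate 2 exceeded the mean of the other 5 libraries 2.80 times for Igf2, 1.95 times for Dlk1, 1.92 times for Mest, 1.78 times for H19, 1.45 times for Plagl1 and 1.38 times for Cdkn1c. It was at least 1.5 times the highest of the others for Igf2 (2.01 times) and Mest (1.68 times), which 0.780% of all genes reached. Of the remaining genes, Meg3 and Peg3 were highest in Crlf2-/- replicate 1 (17.2% of all genes), Grb10 in WT replicate 2 (16.0%) and Peg10 in WT replicate 3 (18.1%). For H19, Igf2, Dlk1, Mest and Cdkn1c the SD of log2 values was 0.51 to 0.77 among Crlf2-/- libraries, against 0.07 to 0.36 among WT libraries and a median over genes of 0.18 in each group. The same library held the skeletal muscle transcripts given above, with none of the 9 markers at 0 (1 or 2 of the 9 were at 0 in each other library), and their part in these values was not tested. Leaving it out turned the balance to 3 genes above 0 and 7 below, with a median log2 fold change of -0.06, and again 0 of 10 genes were called, against 0.0131% of all genes.

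**Figure D4:**
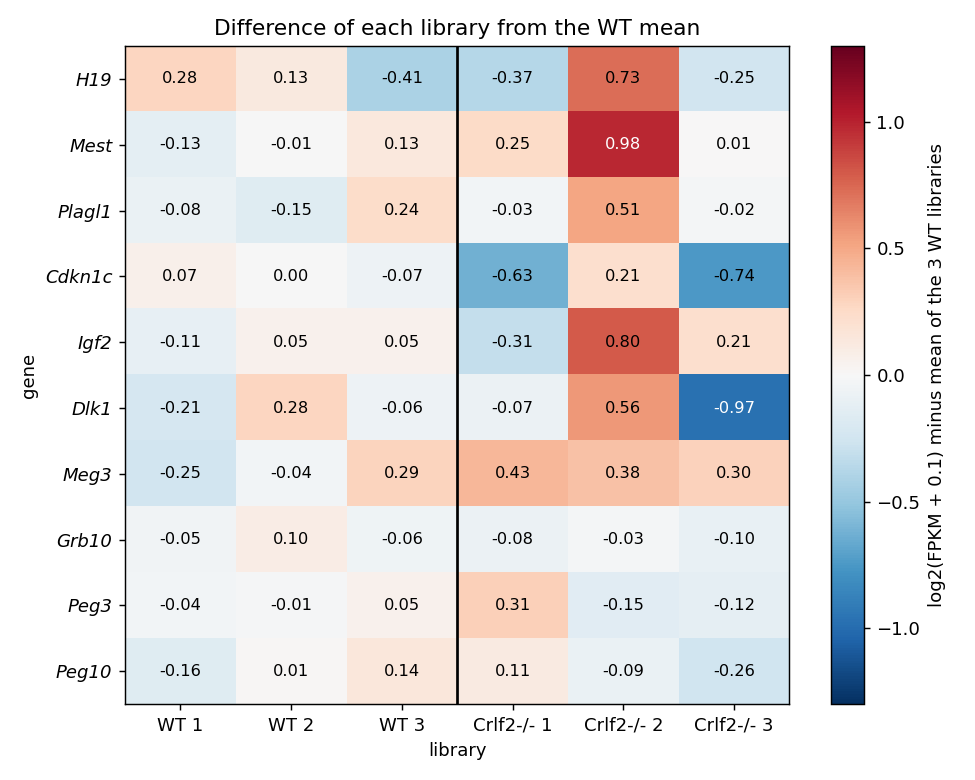
Difference of each library from the mean of the 3 WT libraries for the 10 genes, on the log2(FPKM + 0.1) scale (red above, blue below). The column of Crlf2-/- replicate 2 is positive for H19 (0.73), Mest (0.98), Plagl1 (0.51), Cdkn1c (0.21), Igf2 (0.80), Dlk1 (0.56) and Meg3 (0.38), and replicates 1 and 3 are negative for Cdkn1c (-0.63 and -0.74).

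Promoter sequences are shown for a member of each pattern: Mest and Plagl1, highest in Crlf2-/- replicate 2, and Peg3, which was not. CpG dinucleotides, the sites at which imprinted promoters are methylated, are in capitals. The 250 bases before the annotated start were taken from RefSeq (GRCm38.p6), 5′ to 3′ on the strand of the gene: chr6:30737800-30738049 (plus strand) for Mest, chr10:13090582-13090831 (plus strand) for Plagl1 and chr7:6730420-6730669 (minus strand) for Peg3.
Mest: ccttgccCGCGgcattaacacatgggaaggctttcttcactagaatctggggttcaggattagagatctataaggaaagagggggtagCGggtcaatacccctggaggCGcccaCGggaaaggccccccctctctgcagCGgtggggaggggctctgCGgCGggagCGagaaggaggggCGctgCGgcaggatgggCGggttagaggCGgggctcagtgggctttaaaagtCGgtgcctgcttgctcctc
Plagl1: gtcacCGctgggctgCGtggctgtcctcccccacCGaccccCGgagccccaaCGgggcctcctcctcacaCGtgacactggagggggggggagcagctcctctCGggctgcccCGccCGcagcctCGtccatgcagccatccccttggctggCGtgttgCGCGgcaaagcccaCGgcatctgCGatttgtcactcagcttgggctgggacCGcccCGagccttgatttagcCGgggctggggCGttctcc
Peg3: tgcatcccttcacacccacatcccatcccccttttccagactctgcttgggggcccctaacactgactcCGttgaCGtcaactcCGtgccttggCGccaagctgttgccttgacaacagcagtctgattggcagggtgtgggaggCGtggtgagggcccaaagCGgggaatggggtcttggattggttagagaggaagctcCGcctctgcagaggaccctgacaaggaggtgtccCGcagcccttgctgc
These stretches hold 14 CpG for Mest, 19 for Plagl1 and 8 for Peg3. Together with 50 bases after the start, the windows of 300 bases held 17, 26 and 13, where the median of all 32851 windows was 7 and as many CpG were found in 31.4%, 16.9% and 37.9% of them. A promoter was found for 7 of the 10 genes, with 14 windows in all, and the richest was that of Grb10 (chr11:12037371-12037670), with 45 CpG, a number that 1.93% of windows reached. GGGGCCCC, part of the GC-rich motif known for Plagl1, was searched on both strands and occurred in 1.08% of windows and in 1 of the 14, that of Peg3. CAGCTG, an E-box of the kind bound by myogenic factors, occurred in 16.3% of windows and in 1 of the 14, at another Mest start (chr6:30733256-30733555). DNA methylation was not measured here, and a match of letters is a description of the sequence only.

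Imprinted neighbours of the 10 genes were examined as a single list pooled over their clusters. Opposite differences in separate clusters would cancel in its counts and median, so these do not show whether any single cluster moved. Of 33 such genes, 25 were tested, 11 had fold changes above 0 and 14 below, with a median of -0.02 on the log2 scale (-0.06 without Crlf2-/- replicate 2), and none was called. Kcnq1, a potassium channel subunit that repolarises cardiomyocytes and is encoded in the Cdkn1c cluster, was at 1.32, 1.78 and 2.45 FPKM in WT and 0.980, 1.02 and 1.49 FPKM in Crlf2-/- hearts. Its log2 fold change was -0.61 (unadjusted p = 0.0429, adjusted p = 0.732, limma), the only one of the 25 with an unadjusted p under 0.05, and it was -0.52 (unadjusted p = 0.116, limma) without Crlf2-/- replicate 2. The 10 cardiomyocyte markers were also all below 0, with a median log2 fold change of -0.66, and their part in the Kcnq1 values was not tested. Dio3, the enzyme of the Dlk1 cluster that inactivates thyroid hormone, was at 1.11, 1.66 and 0.834 FPKM in WT and 1.29, 3.25 and 1.57 FPKM in Crlf2-/- hearts. Like 7 others of the 25 tested, it was highest in Crlf2-/- replicate 2, as were 17.9% of all genes. Its log2 fold change went from 0.66 (limma adjusted p = 0.852) to 0.29 without that library. Sgce, a sarcoglycan that neighbours Peg10, lay below the WT range in all 3 Crlf2-/- libraries (4.51, 5.16 and 4.82 FPKM against 5.34, 5.59 and 5.60 FPKM), with a log2 fold change of -0.19 (limma adjusted p = 0.856).

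Of 30 imprinted genes from other clusters, 24 were tested, with 19 above 0 and 5 below and a median log2 fold change of 0.08 (0.07 without Crlf2-/- replicate 2). None had an unadjusted p under 0.05 and none was called. Gatm, which makes the creatine precursor guanidinoacetate, was at 10.4, 10.7 and 10.5 FPKM in WT and at 11.6, 13.7 and 11.3 FPKM in Crlf2-/- hearts without overlap, and its log2 fold change was 0.21 (limma adjusted p = 0.824), or 0.13 without Crlf2-/- replicate 2. Sfmbt2, a Polycomb group gene, also did not overlap but rested on 19 to 38 fragments (log2 fold change 0.34, limma adjusted p = 0.897). The lowest value of the list was that of Nnat, a small membrane proteolipid, with 13 to 44 fragments and a log2 fold change of -0.71 (limma adjusted p = 0.798), or -0.59 without that library.

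The IGF pathway, through which Igf2 and Grb10 act, was examined with 22 genes, of which 19 were tested and none was called. Of these, 8 were above 0 and 11 below, with a median log2 fold change of -0.02 that was 0.03 without Crlf2-/- replicate 2. Pappa, a metalloprotease that cleaves IGF binding protein 4, was at 1.71, 3.19 and 3.11 FPKM in WT and at 5.65, 3.84 and 4.05 FPKM in Crlf2-/- hearts. All Crlf2-/- values lay above all WT values, and its log2 fold change was 0.77 (SE 0.25, unadjusted p = 0.015, adjusted p = 0.541, limma), or 0.88 without Crlf2-/- replicate 2. Stc2, which inhibits that protease, was at 4.18, 4.78 and 4.60 FPKM in WT and at 2.58, 2.55 and 3.75 FPKM in Crlf2-/- hearts, again without overlap. Its log2 fold change was -0.61 (SE 0.17, unadjusted p = 0.00593, adjusted p = 0.369, limma), or -0.51 without that library. The related inhibitor Stc1 had a log2 fold change of 0.60 (limma adjusted p = 0.765), the opposite sign to Stc2, and its groups overlapped. Igf1, the postnatal IGF, was at 21.9 to 23.9 FPKM in WT and 24.6 to 31.3 FPKM in Crlf2-/- hearts (log2 fold change 0.23, limma adjusted p = 0.842), a level far above that of Igf2 in every library. The receptors Igf2r (log2 fold change 0.04) and Igf1r (-0.19) overlapped between groups.

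Factors that maintain imprints and other cell cycle inhibitors were examined last. All 11 genes of imprint maintenance were tested, with 4 above 0 and 7 below, a median log2 fold change of -0.06 (-0.07 without Crlf2-/- replicate 2) and none called. Setdb1, a histone methyltransferase recruited to imprinted control regions, was at 5.81, 5.31 and 5.11 FPKM in WT and 4.93, 4.49 and 4.42 FPKM in Crlf2-/- hearts without overlap (log2 fold change -0.22, limma adjusted p = 0.827). The DNA methyltransferases Dnmt1 and Dnmt3a had log2 fold changes of 0.13 and -0.20, and Uhrf1, the cofactor of Dnmt1, of 0.15. The 6 other cell cycle inhibitors were all tested, with 3 above 0 and 3 below, a median of 0.0087 (-0.14 without Crlf2-/- replicate 2) and none called. Cdkn1a and Cdkn1b, the p21 and p27 relatives of Cdkn1c, had log2 fold changes of -0.21 and -0.15 (limma adjusted p = 0.867 and 0.930). Cdkn2b, the p15 inhibitor, was at 8.85 to 11.0 FPKM in WT and at 8.40, 16.2 and 14.1 FPKM in Crlf2-/- hearts (log2 fold change 0.33, and 0.15 without replicate 2).

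**Figure D5:**
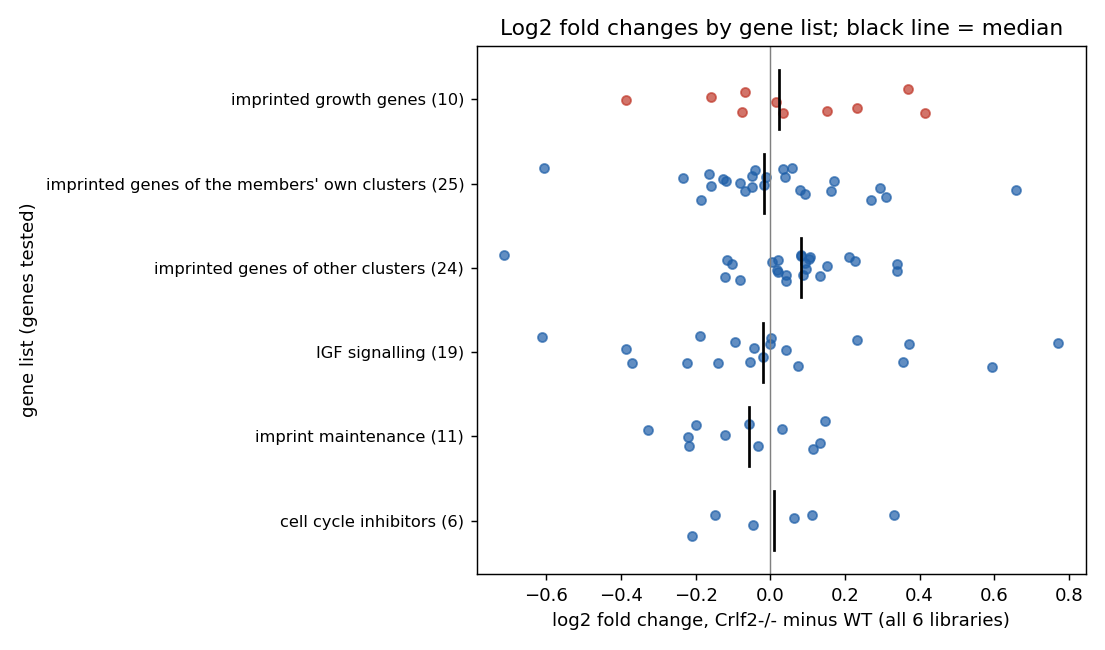
Log2 fold change (Crlf2-/- minus WT, all 6 libraries) of every tested gene of the 10 imprinted growth genes and of the 5 pathway lists; each point is a gene, scattered vertically for legibility, and the black line is the median. Medians lay between -0.06 and 0.08, and the outermost points are Pappa (0.77) and Nnat (-0.71).

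Genes whose profile over the 6 libraries was most like that of each imprinted gene were found by the root mean square difference of log2 values centred on their own mean, among 12129 genes of at least 1 FPKM on average. For H19 they were Rpl17-ps5, Gm1673 and Pop7, for Igf2 Dancr, Cacnb1 and Rab40b, and for Mest Gm45879, Pnp2 and Tuft1. The nearest differed by 0.11, 0.10 and 0.06 on the log2 scale. All 9 were highest in Crlf2-/- replicate 2, which follows from choosing them by likeness to genes highest there. For Cdkn1c they were Ndufa12, Sp3os and Ly96 (nearest 0.09), and for Plagl1 Gpr135, Arxes2 and Cwc27 (nearest 0.08). The genes most like Meg3 were Wisp1, Col11a1 and Adamts6, with differences of 0.07, 0.07 and 0.08. Wisp1 was at 38.2, 45.7 and 55.1 FPKM in WT and at 66.3, 55.1 and 56.4 FPKM in Crlf2-/- hearts. Its groups were nearly apart as for Meg3, which likewise follows from the choice. For Dlk1, Hoxd8, Gm10478 and Ankrd37 were nearest, though at 0.17 to 0.20, the poorest likeness of the 10. Grb10 was followed closely by Rab11b, Emc3 and Tmbim1 (nearest 0.01), Peg3 by Ints2, Lins1 and Lpin3 (0.03) and Peg10 by Zfp868, Tspan2 and Gm16589 (0.04). These likenesses describe 6 libraries only, and with 12129 genes to choose from some close profiles occur in any table.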

How the data were processed

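RNA from the hearts of 3 WT and 3 Crlf2-/- mice had been sequenced. The extraction text in the labels names retina and another kit than the paper, while the tissue label and the paper both name heart, which was followed. The authors aligned reads with HISAT2 2.0.5, counted fragments with featureCounts, deposited FPKM beside gene lengths, and tested their counts with DESeq2. Their notes name mm10 and hg38. The gene lengths of the 10 genes equalled the exonic lengths in GENCODE M21 (GRCm38).

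Each deposited nonzero FPKM times gene length was a whole number of steps within 0.01 fragment (100% of values), which gave fragments for library totals, filter and scaling. The table held 0 columns of other samples. FPKM were scaled by trimmed means of M values, and log2(FPKM + 0.1) was fitted with limma 3.58.1 (trend, robust) in R 4.3.3. Fold changes on this scale understate those of low genes. SD and printed FPKM are of deposited values. Libraries are separate mice by the study's design. Other steps used Python 3.11.15 (pandas 2.3.3, scipy 1.17.1, numpy 2.4.6), and figures were drawn with matplotlib 3.10.9.

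The 10 genes, the gene lists and the tests were chosen with earlier results of these data known. Named genes were the 10, Crlf2, up to 4 tested genes of smallest p in each pathway list and the 3 nearest profiles of each gene. Igf2r, Igf1r, Copg2, the microRNA precursors, the muscle genes and the single marker genes named were picked after their values were seen. Exact permutation tests were two-sided. Alternatives were other scalings, pseudocounts and filters, voom, a replicate block and leaving out each library. Whether replicate numbers pair mice was checked by the correlation of deviations of same-numbered libraries, which was -0.02, 0.12 and 0.12, so the numbers were not taken as pairs.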

Additional observations from a re-analysis of the deposited data

How the results depend on the processing

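None of the 10 genes was called under any of the 15 alternatives, and their adjusted p ranged from 0.286 (Cdkn1c without Crlf2-/- replicate 2) to 1.00. Over all genes the count of 2 called became 6 with no filter on low genes and 1 when 10 fragments were required in every library, a filter that also removed Igf2. With the replicate number as a block it became 4. The block changed no call among the 10 genes. Leaving out 1 library gave 1 to 14 calls, 14 without Crlf2-/- replicate 1 and 5 without WT replicate 3. Signs of small differences turned with single libraries. Leaving out each in turn, the log2 fold change ranged from -0.31 to 0.24 for H19, from -0.048 to 0.51 for Igf2, from -0.52 to 0.25 for Dlk1, from -0.14 to 0.10 for Peg3, from -0.023 to 0.27 for Plagl1 and from -0.17 to 0.017 for Peg10. The medians of the pathway lists lay near 0, and their signs turned as well: leaving out each library they ranged from -0.063 to 0.012 for the neighbours in the same clusters, from -0.090 to 0.076 for IGF signalling, from -0.090 to 0.017 for imprint maintenance and from -0.14 to 0.16 for cell cycle inhibitors, while that of imprinted genes of other clusters stayed between 0.022 and 0.12. Cdkn1c stayed between -0.68 and -0.20, Meg3 between 0.24 and 0.51, Mest between 0.13 and 0.62 and Grb10 between -0.10 and -0.02 over all alternatives. For the library with skeletal muscle transcripts the cause was not tested.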

Other observations

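Marker lists that belong to no comparison above gave these values. Epicardial and mesothelial markers summed to 16.6 to 28.1 FPKM in WT and 21.7 to 43.5 FPKM in Crlf2-/- hearts, with 7 of 7 genes above 0 and a median log2 fold change of 0.39 (0.62 without Crlf2-/- replicate 2). The 43.5 FPKM was that of Crlf2-/- replicate 1, and the sums of replicates 2 and 3 (21.7 and 23.4 FPKM) lay within the WT range. Adipocyte markers summed to 38.6 to 108 FPKM and 17.3 to 56.6 FPKM, with 5 of 5 tested genes below 0 and a median of -1.74 (-0.74 without Crlf2-/- replicate 2). The 108 FPKM was that of WT replicate 2, and the other WT sums (41.4 and 38.6 FPKM) lay below that of Crlf2-/- replicate 3 (56.6 FPKM). Endothelial markers summed to 154 to 179 FPKM and 147 to 155 FPKM (median -0.13 with and without Crlf2-/- replicate 2). Macrophage markers summed to 2333 to 4174 FPKM and 2752 to 3409 FPKM (median 0.09, and 0.03 without it), and proliferation markers to 44.4 to 62.1 FPKM and 54.0 to 56.7 FPKM (median 0.10, and -0.0077 without that library). Atrial markers summed to 273 to 420 FPKM and 141 to 329 FPKM, nearly all of it from Nppa (272 to 420 and 140 to 327 FPKM). Of the other atrial markers, Myl7 and Bmp10 were at most at 0.535 and 0.0204 FPKM. Myl4 and Sln were highest in Crlf2-/- replicate 2, the library with skeletal muscle transcripts, at 6.97 and 4.98 FPKM. Nppa and Myl7 were not highest there, at 219 and 0.0727 FPKM. No gene of these lists was called different by limma.

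The fetal myosin Myh8 had 507 fragments in Crlf2-/- replicate 2 and at most 1 in the other 5 libraries. Myod1 and Myf6, myogenic factors, had 69 and 99 fragments there and 0 elsewhere, and Chrng, the fetal subunit of the muscle acetylcholine receptor, had 60 against at most 3. Pax7, which marks muscle stem cells, had 2 fragments in that library. These genes were chosen after their values were seen.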
